A study of Mus musculus with 2 samples.

Results

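The genes described here encode the enzymes that feed pyruvate into the citric acid cycle, turn the cycle, and draw its intermediates off again. They are 38 genes chosen by symbol, out of 38087 Ensembl genes with a value. No cut on a measured value was applied, but the choice was made with earlier results of these data known. RNA was sequenced from parietal cells, which secrete the acid of the stomach, sorted from C57BL/6 mice on a high fat diet (HFD) or on a control diet, and the sorted samples are called HFD cells and control cells. With 1 library per diet nothing could be tested, and each difference given is one between these 2 libraries, not between diets. The number of mice in a library, their age and sex, the composition of the diets, the time on them and the sorting markers are not stated by the sources at hand.

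Pyruvate made by glycolysis enters mitochondria, where the pyruvate dehydrogenase complex turns it into acetyl-CoA or pyruvate carboxylase turns it into oxaloacetate. The cycle oxidises acetyl-CoA and passes electrons to the respiratory chain, while malate, citrate and glutamate link it to the cytosol. Parietal cells are among the cells richest in mitochondria, since the proton pump that acidifies the stomach runs on ATP.

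Values are in RPKM, reads per kilobase of gene scaled by library size, and a gene at or below 1 RPKM is listed at 0. From the step between low values, depth came to 25.5 M reads for HFD cells and 9.84 M for control cells, so a gene of 2 kb at 1 RPKM rested on about 51.0 and 19.7 reads. Ratios are HFD over control in RPKM, with approximate 95% intervals from the estimated reads. The intervals cover counting error only and say nothing of variation between mice. Of the markers that check the parietal label, the proton pump genes stood high, Atp4a at 4997 RPKM in HFD cells and 4324 in control cells and Atp4b at 5639 and 4375 RPKM, but neither library held parietal transcripts alone. The 12 parietal markers summed to 12850 RPKM in HFD cells and 9944 in control cells, with 11 of 12 higher in HFD cells. Chief cell markers summed to 46051 and 102874 RPKM (3 of 5 lower, Lipf at 0 in both), nearly all of it Pgc (45624 and 102292). Pit cell markers summed to 36056 and 14515 RPKM (4 of 5 higher). Their ratios were 4.33 for Gkn1, 2.38 for Gkn2 and 1.31 for Muc5ac, while Psca (1.02) and Tff1 (0.986) were nearly level. Neck cell markers summed to 7494 and 8500 RPKM (2 of 2 lower). Gastric endocrine markers summed to 1211 RPKM in HFD cells and 8296 in control cells (5 of 6 lower). Pancreatic acinar markers summed to 1797 and 13497 RPKM (7 of 7 lower), nearly all of it Clps (1790 and 12989). Ctrb1, Cela2a, Pnlip, Prss2 and Cpa1 were at 0 in HFD cells. Smooth muscle markers summed to 20.9 and 159 RPKM (4 of 4 lower), fibroblast markers to 46.9 and 137 (5 of 5 lower), endothelial markers to 4.61 and 15.4 (3 of 3 lower) and erythroid markers to 13.4 and 41.7 (4 of 4 lower, Alas2 at 0 in HFD cells). Adipocyte markers summed to 6.03 and 18.2 RPKM, with Adipoq, Plin1, Lep, Retn and Cfd at 0 in both libraries. Leukocyte markers summed to 26.0 and 8.13 RPKM, with Ptprc and Cd3e at 0 in both, and hepatocyte markers to 1589 and 1338 RPKM, nearly all of it Apoa1 (1576 and 1260 RPKM), with G6pc at 0 in both and 3 of the 4 listed markers lower. In bulk RNA, fewer cells of a type and less RNA per cell cannot be told apart, and the part of these other cells in the ratios below was not tested.

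Of the 38 genes, 37 were listed in at least 1 library and 36 in both. Pck1 was listed at 0 in both, and Pdk4 at 0 in HFD cells. The genes went both ways: 19 were higher and 18 lower in HFD cells as deposited, with a median log2 ratio of 0.06 (quartiles -0.44 and 0.43) on the log2(RPKM + 1) scale. Over the 11976 protein-coding genes listed in either library the median was -0.11 (quartiles -0.75 and 0.37), with 5271 higher and 6705 lower. The split of the 38 genes depended on the scaling, from 6 higher and 31 lower with a median of -0.51 to 25 higher and 12 lower with a median of 0.35. Under the same 2 scalings, 20.1% and 56.9% of those protein-coding genes were higher. As deposited, none of the 37 was over 2-fold higher on the log2(RPKM + 1) scale, where 8.02% of those protein-coding genes and 12.5% of all listed genes were. Over 2-fold lower were 3 genes, Pck2, Pdp2 and Pdk4, where 20.1% of protein-coding genes and 23.9% of all listed genes were. Pdk4 passed by construction, since a value above 1 RPKM against a listed 0 always exceeds 2-fold on this scale.

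A milder limit of 1.5-fold by the RPKM ratio, chosen after the values were seen, was passed upward by 6 of the 36 genes listed in both libraries, Dld, Dlst, Sucla2, Me1, Me2 and Me3, and downward by 5, Pdhx, Pdk3, Pdp2, Idh3g and Pck2. These were 16.7% and 13.9% of the 36 genes, where the background among 9997 protein-coding genes listed in both was 18.7% higher and 24.4% lower, so neither share exceeded it. Counting error was small beside the ratios. The interval lay wholly above 1 for 19 genes and wholly below 1 for 15, and held 1 for Dlat and Fh1, while among the protein-coding genes it lay above 1 for 37.8% and below 1 for 42.1%. The estimated reads behind a gene listed in both ranged from 206 to 32401 in HFD cells and from 89.6 to 8980 in control cells.

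**Figure D1:**
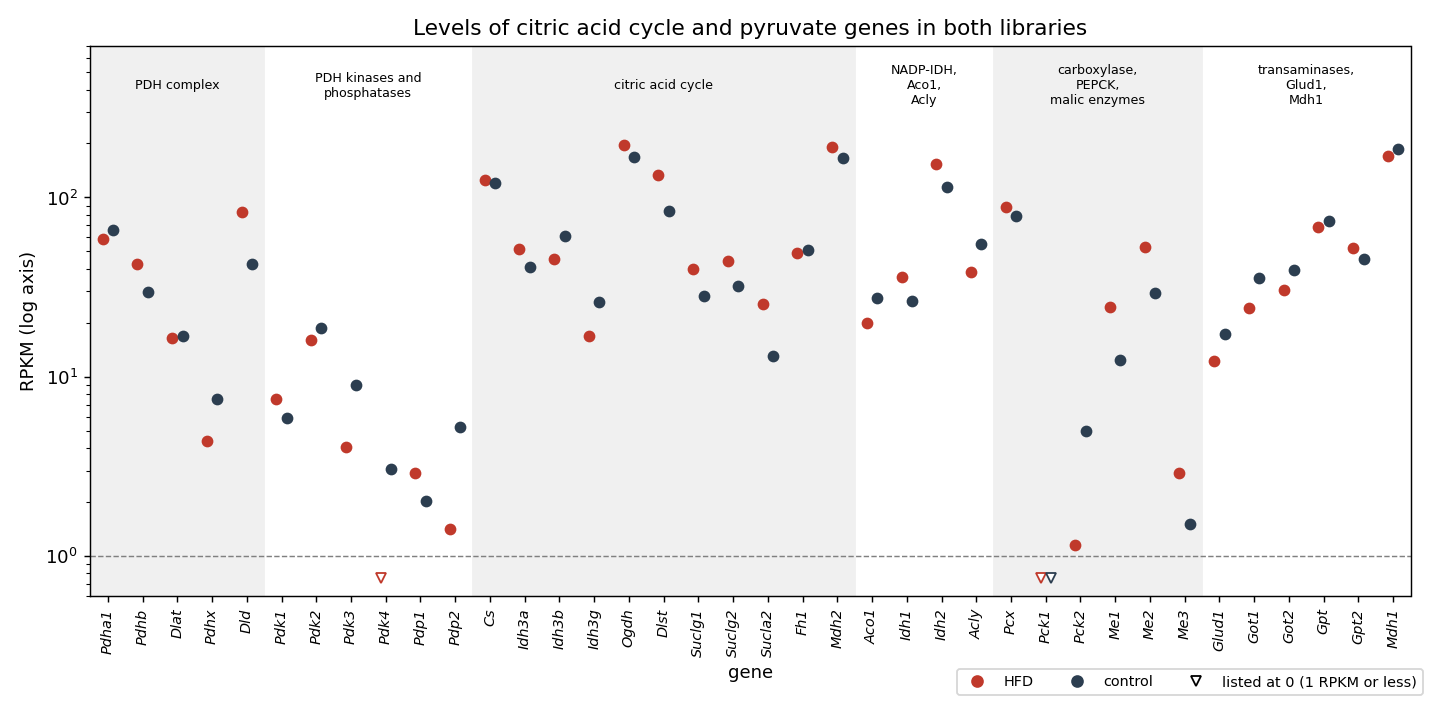
RPKM (log axis) of the 38 genes in HFD cells (red, left of each pair) and the control library (dark, right), by role; open triangles are genes listed at 0 and the dashed line is the floor of 1 RPKM. Cycle enzymes reach 195 RPKM, while kinases and phosphatases of pyruvate dehydrogenase stay below 20 RPKM in both libraries.

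The promoters of the 3 genes with the highest ratios (Me1, Sucla2 and Dld) and of the 3 with the lowest (Pdk3, Pdp2 and Pck2), among the 36 genes listed in both libraries, are shown to set the extremes of the group side by side. They are RefSeq windows on GRCm38.p6, 250 bases before to 50 after an annotated start, read 5′ to 3′ on the gene's strand, and 34 of the 38 genes had one. Me1 had 2 such starts, of which the first listed was used. The Sucla2 window lies inside the gene as annotated in GENCODE M21, which begins at base 73525319. Capitals mark matches on either strand to 4 motifs: TNAAGGTCA of estrogen-related receptors, TGCGCA of NRF1, TGACNNNGC of the antioxidant response and TGATGNAA of the amino acid response.
Me1, chr9:86695865-86696164, minus strand: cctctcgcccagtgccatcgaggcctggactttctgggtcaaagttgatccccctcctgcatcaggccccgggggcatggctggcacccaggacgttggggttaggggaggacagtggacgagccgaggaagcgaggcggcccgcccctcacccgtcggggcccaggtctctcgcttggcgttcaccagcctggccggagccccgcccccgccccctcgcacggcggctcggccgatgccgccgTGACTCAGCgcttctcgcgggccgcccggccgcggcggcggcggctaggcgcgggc
Sucla2, chr14:73552536-73552835, plus strand: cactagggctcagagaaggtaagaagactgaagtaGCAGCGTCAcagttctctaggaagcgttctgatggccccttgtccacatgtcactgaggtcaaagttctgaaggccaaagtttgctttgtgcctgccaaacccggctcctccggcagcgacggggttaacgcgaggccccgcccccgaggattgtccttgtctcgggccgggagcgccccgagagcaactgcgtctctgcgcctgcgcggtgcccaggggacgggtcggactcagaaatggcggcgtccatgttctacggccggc
Dld, chr12:31351422-31351721, minus strand: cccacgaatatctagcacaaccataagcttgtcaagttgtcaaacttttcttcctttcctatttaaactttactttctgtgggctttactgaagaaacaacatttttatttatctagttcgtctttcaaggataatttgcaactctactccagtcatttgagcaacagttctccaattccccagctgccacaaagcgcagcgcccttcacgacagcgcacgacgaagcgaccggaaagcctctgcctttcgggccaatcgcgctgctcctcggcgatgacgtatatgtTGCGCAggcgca
Pdk3, chrX:93832101-93832400, minus strand: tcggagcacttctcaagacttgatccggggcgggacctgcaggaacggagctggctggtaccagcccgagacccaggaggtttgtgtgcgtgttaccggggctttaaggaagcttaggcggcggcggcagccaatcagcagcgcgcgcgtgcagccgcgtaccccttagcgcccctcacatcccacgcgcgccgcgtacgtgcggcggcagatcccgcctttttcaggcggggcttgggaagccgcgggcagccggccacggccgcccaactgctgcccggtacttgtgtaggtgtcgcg
Pdp2, chr8:104591222-104591521, plus strand: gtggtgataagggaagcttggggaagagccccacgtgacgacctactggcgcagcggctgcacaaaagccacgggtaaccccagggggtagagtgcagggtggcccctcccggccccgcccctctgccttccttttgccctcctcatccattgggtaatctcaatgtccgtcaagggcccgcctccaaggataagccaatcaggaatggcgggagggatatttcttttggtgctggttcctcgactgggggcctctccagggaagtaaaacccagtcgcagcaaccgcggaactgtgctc
Pck2, chr14:55540016-55540315, plus strand: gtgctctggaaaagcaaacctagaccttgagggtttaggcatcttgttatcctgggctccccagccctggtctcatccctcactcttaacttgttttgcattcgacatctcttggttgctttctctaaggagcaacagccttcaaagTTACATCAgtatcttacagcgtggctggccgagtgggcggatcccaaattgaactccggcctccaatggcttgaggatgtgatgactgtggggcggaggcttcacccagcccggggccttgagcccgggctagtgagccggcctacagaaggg
The NRF1 letters were found in 4 of 34 windows, Dld, Mdh2, Got2 and Glud1 (11.8%), against 8.06% of 27025 gene windows. The antioxidant letters were found in 6 of 34 windows, Me1, Sucla2, Dlst, Pdhb, Mdh1 and Idh3g (17.6%), against 12.5% of all windows. The amino acid response letters were found in Pck2, Me3 and Got1, 3 of 34 windows (8.82%), against 4.06%. The estrogen-related receptor letters were in none of the 34 windows, against 1.26%. The 4 motifs did not overlap each other in the windows printed. A match is a run of letters, and none of these data bear on whether a factor binds there.

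All 3 malic enzymes were higher in HFD cells. They turn malate into pyruvate, Me1 in the cytosol with NADP, Me2 in mitochondria with NAD and Me3 in mitochondria with NADP. Me2 stood at 52.7 RPKM in HFD cells against 29.3 in control cells, a ratio of 1.80 (1.72 to 1.89). Me1 stood at 24.6 against 12.4 RPKM, a ratio of 1.98 (1.79 to 2.19). Me3 was low in both libraries, at 2.89 against 1.51 RPKM, a ratio of 1.91 (1.66 to 2.23). Their ratios were similar. The enzymes stayed higher under each scaling tried, including the one without the most abundant 20 genes, as ratios above its shift must. Their proportions hardly moved: Me2 made up 65.7% of the summed RPKM of the family in HFD cells and 67.7% in control cells, and Me1 30.7% and 28.8%. The Me2 to Me1 quotient was 2.14 in HFD cells and 2.36 in control cells, and the interval of its change (0.910, 0.815 to 1.02) held 1. Me3 shares 569 exonic bases with an antisense gene on the opposite strand, A230065N10Rik, which stood at 6.31 and 4.34 RPKM. Since no strand rule is stated by the sources, the value of Me3 is uncertain.

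The enzymes of oxaloacetate and of cytosolic citrate went in different directions. Pcx, pyruvate carboxylase, which makes oxaloacetate from pyruvate, was abundant and close in both libraries, at 88.7 RPKM in HFD cells and 78.5 in control cells (1.13, 1.09 to 1.17). Pck2, the mitochondrial PEP carboxykinase, which turns oxaloacetate into phosphoenolpyruvate, stood at 1.15 against 4.96 RPKM. It was 4.31 times lower in HFD cells (ratio 0.232, 0.196 to 0.274), the lowest ratio among the 36 genes listed in both libraries, at a level just above the floor there. Pck1, its cytosolic counterpart, typical of liver, kidney and fat, was listed at 0 in both. Acly, which splits citrate in the cytosol to acetyl-CoA for lipid synthesis, stood at 38.4 RPKM in HFD cells and 55.1 in control cells (0.698, 0.667 to 0.731). The NADP producer Me1 and the acetyl-CoA producer Acly, both of which supply fatty acid synthesis, therefore differed in opposite directions. Aco1, the cytosolic aconitase that also serves as an iron sensor, stood at 19.97 against 27.4 RPKM (0.729).

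The 5 genes of the pyruvate dehydrogenase complex did not share 1 direction. Dld, the dihydrolipoamide dehydrogenase that this complex shares with the 2-oxoglutarate and branched-chain complexes, stood at 83.0 RPKM in HFD cells and 42.5 in control cells, a ratio of 1.95 (1.85 to 2.06). Pdhb, the beta subunit of the decarboxylase, stood at 42.7 against 29.6 RPKM (1.44, 1.35 to 1.54). Its partner Pdha1, the alpha subunit that carries the regulatory phosphorylation sites, stood at 58.5 against 65.5 RPKM (0.893, 0.851 to 0.937). Both subunits form the same enzyme, and yet the Pdha1 to Pdhb quotient was 1.37 in HFD cells and 2.21 in control cells, a change of 0.619 (0.571 to 0.671). Pdha1 shares 603 exonic bases with Map3k15 on the opposite strand, which stood at 5.19 and 3.67 RPKM. The acetyltransferase core gene Dlat was level, at 16.5 against 16.9 RPKM (0.976, 0.900 to 1.06). Pdhx, which anchors Dld to that core, stood at 4.41 against 7.50 RPKM and was 1.70 times lower (0.588, 0.506 to 0.684). The quotient of Dld to its anchor Pdhx was 18.8 in HFD cells against 5.66 in control cells.

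The enzymes that switch the complex off and on stood below 20 RPKM, where the median of listed protein-coding genes was 7.31 RPKM in HFD cells and 7.004 in control cells. Pyruvate dehydrogenase kinases phosphorylate and inhibit Pdha1, and the phosphatases reverse this. Pdk2 was the most abundant kinase transcript in both libraries, at 16.1 RPKM in HFD cells and 18.7 in control cells (0.864, 0.783 to 0.954). That was 58.3% and 51.1% of the summed RPKM of the kinases. Pdk1, a target of hypoxia signalling, stood at 7.50 against 5.85 RPKM (1.28, 1.15 to 1.43). Pdk3 stood at 4.03 against 8.97 RPKM and was 2.22 times lower (0.450, 0.374 to 0.539). Pdk4, known as the kinase induced by fasting and fatty acids in muscle and liver, was listed at 0 in HFD cells against 3.08 RPKM in control cells, where it rested on about 106 reads. The 4 kinases together summed to 27.7 RPKM in HFD cells and 36.6 in control cells.

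The phosphatases exchanged rank. Pdp1, the calcium-sensitive phosphatase, stood at 2.92 RPKM in HFD cells and 2.02 in control cells (1.45, 1.14 to 1.84), while Pdp2 stood at 1.42 against 5.21 RPKM and was 3.68 times lower (0.272, 0.227 to 0.326). The Pdp1 to Pdp2 quotient was 2.06 in HFD cells against 0.387 in control cells, a change of 5.32 (3.97 to 7.14). Pdp1 in both libraries and Pdp2 in HFD cells were near the floor, and the estimated reads of the phosphatases ranged from 89.6 to 336. Over the 6 kinase and phosphatase genes, 2 were higher and 4 lower in HFD cells, with a median log2 ratio of -0.59 on the log2(RPKM + 1) scale as deposited. That median was -0.21 over the 5 genes listed in both libraries without a pseudocount and -0.59 over genes at 5 RPKM or more in a library, both without Pdk4.

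**Figure D2:**
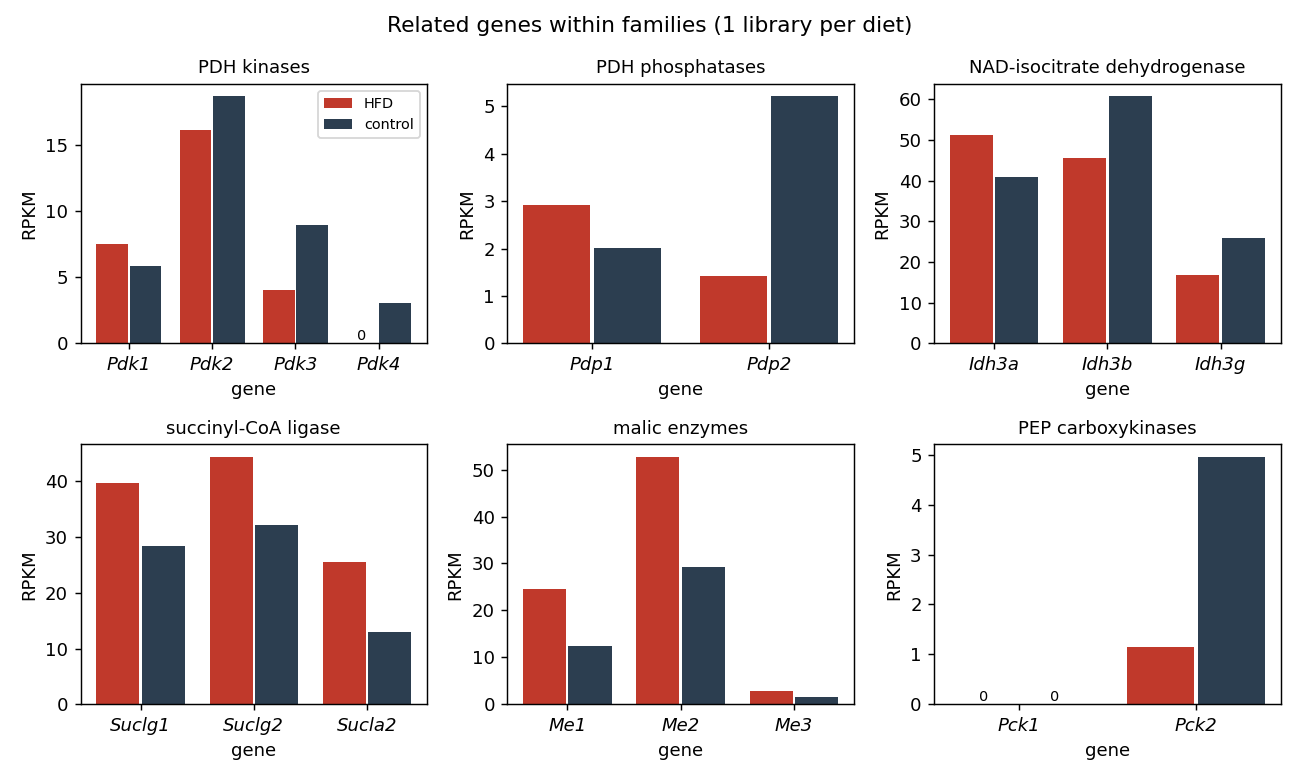
RPKM (linear axes from 0) of 6 families in HFD cells (red, left bar) and the control library (dark, right bar); a 0 marks a gene listed at or below 1 RPKM and there are no error bars since each diet had 1 library. All 3 malic enzymes are higher in HFD cells, whereas Pdp1 and Pdp2, and Idh3a and its partners, differ in opposite directions as deposited, but not when the most abundant 20 genes are left out of the total.

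The cycle itself was carried by abundant transcripts, with 8 of 11 enzymes higher in HFD cells as deposited and a median log2 ratio of 0.22, which turned to -0.35 when the most abundant 20 genes were left out of the total used for scaling. Ogdh, the decarboxylase of the 2-oxoglutarate complex, was the most abundant of the 38 genes in HFD cells at 195 RPKM, against 167 in control cells (1.17, 1.14 to 1.19). This placed it at percentile 99.0 of listed protein-coding genes in HFD cells and 98.9 in control cells. Mdh2, the mitochondrial malate dehydrogenase, stood at 190.0 against 166 RPKM (1.14, 1.11 to 1.18). Cs, citrate synthase, which opens the cycle, was nearly level at 126 against 121 RPKM (1.04, 1.01 to 1.07). Csl, an annotated copy of Cs, was listed at 65.1 and 63.2 RPKM, and 12.9% of its 31-base words occur in Cs, so some reads could count for either. Fh1, fumarase, was also level at 48.9 against 50.9 RPKM (0.961, 0.908 to 1.02).

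The steps around 2-oxoglutarate and succinyl-CoA held the larger differences. Dlst, the succinyltransferase core of the 2-oxoglutarate complex, stood at 133 RPKM in HFD cells and 84.6 in control cells (1.57, 1.53 to 1.61), a larger ratio than that of its partner Ogdh. The Dlst to Ogdh quotient was 0.681 in HFD cells against 0.505 in control cells. Succinyl-CoA ligase pairs an alpha subunit, Suclg1, with a beta subunit that sets whether ADP (Sucla2) or GDP (Suclg2) is used. Sucla2 stood at 25.5 against 13.0 RPKM, a ratio of 1.96 (1.78 to 2.16). Suclg2 stood at 44.4 against 32.2 RPKM (1.38, 1.30 to 1.46) and Suclg1 at 39.7 against 28.3 RPKM (1.40, 1.32 to 1.49). The RPKM of Suclg2 was thus above that of Sucla2 in both libraries, by 1.74 times in HFD cells and 2.47 times in control cells. The change of that quotient was 0.704 (0.630 to 0.787), and the enzyme forms themselves were not measured.

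The NAD-linked isocitrate dehydrogenase showed how far subunits of 1 enzyme parted. Idh3a, the catalytic alpha subunit, stood at 51.4 RPKM in HFD cells and 40.9 in control cells (1.26, 1.20 to 1.32). Idh3b, the beta subunit, stood at 45.6 against 60.9 RPKM (0.749, 0.710 to 0.790), and Idh3g, the regulatory gamma subunit, at 16.8 against 26.0 RPKM (0.645, 0.586 to 0.709). The Idh3a to Idh3b quotient was 1.13 in HFD cells against 0.672 in control cells, and the Idh3a to Idh3g quotient 3.06 against 1.57. Idh3b shares 5 exonic bases with Nop56 on the opposite strand, which stood at 79.9 and 27.5 RPKM. The NADP-linked enzymes kept their proportion. Idh2, in mitochondria, stood at 153 against 114 RPKM (1.35, 1.29 to 1.40) and Idh1, in the cytosol and peroxisomes, at 36.1 against 26.6 RPKM (1.36, 1.25 to 1.48). The Idh2 to Idh1 quotient was 4.24 in HFD cells and 4.28 in control cells, a change of 0.990 (0.903 to 1.09).

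**Figure D3:**
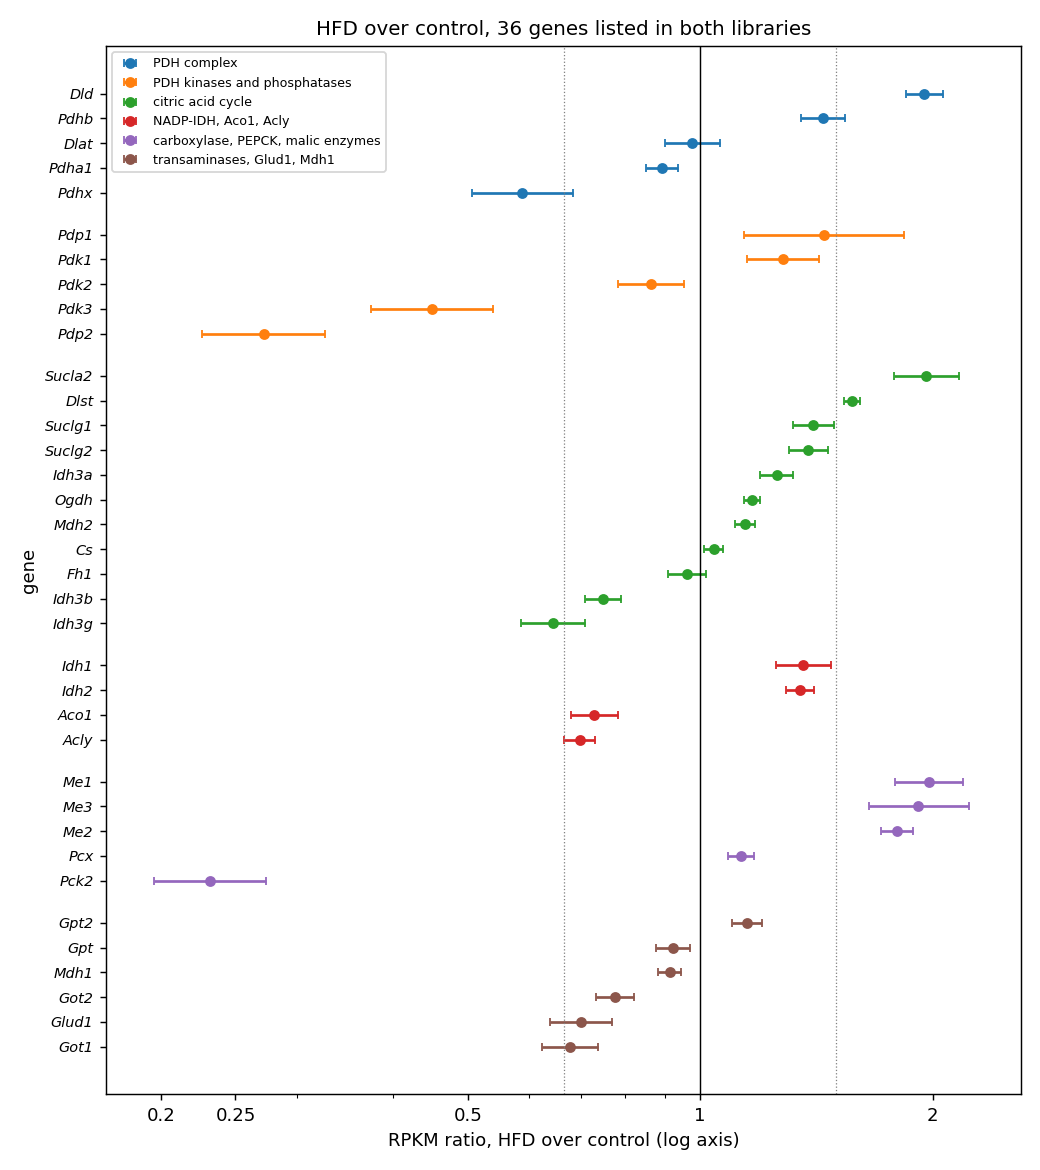
RPKM ratio of the HFD over the control library (log axis) for the 36 genes listed in both, by role, with approximate 95% intervals that cover counting error only; the solid line is 1 and the dotted lines are 1.5-fold either way. Me1, Sucla2 and Dld lie near 2, Pck2 and Pdp2 lie under 0.3, and the subunits of pyruvate dehydrogenase and of Idh3 spread to both sides of 1 as deposited.

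The enzymes that exchange glutamate, aspartate, alanine and malate between the compartments were lower in HFD cells in 5 of 6 cases as deposited, with a median log2 ratio of -0.24, which became 0.045 when scaled to the total of protein-coding genes. Mdh1, the cytosolic malate dehydrogenase of the malate-aspartate shuttle, was the most abundant of the 38 genes in control cells, at 169 RPKM in HFD cells and 186 in control cells (0.913, 0.882 to 0.945). The Mdh2 to Mdh1 quotient was 1.12 in HFD cells against 0.897 in control cells. The aspartate transaminases of the same shuttle were both lower under each scaling tried, Got1 in the cytosol at 24.0 against 35.5 RPKM (0.678, 0.623 to 0.737) and Got2 in mitochondria at 30.6 against 39.5 RPKM (0.776, 0.734 to 0.821). Their ratios lay below what the largest upward shift could reverse, so this was fixed in advance. Glud1, which turns glutamate into 2-oxoglutarate, stood at 12.2 against 17.4 RPKM (0.701, 0.640 to 0.769). The alanine transaminases, which link pyruvate to alanine, were both abundant. Gpt stood at 68.4 against 74.3 RPKM (0.921, 0.875 to 0.969) and Gpt2 at 52.3 against 45.5 RPKM (1.15, 1.10 to 1.20).

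Scale decided the sign of many of these small ratios. The deposited values were 19 higher and 18 lower, but 6 higher and 31 lower when scaled to a total that leaves out the most abundant 20 genes, 15 and 22 when scaled to equal Atp4a, and 25 and 12 when scaled to the total of protein-coding genes. Of the protein-coding genes listed in either library, 20.1%, 34.3% and 56.9% were higher under these scalings in the same order. Over 2-fold lower were 8 of the 37 listed genes under the first of these, where 31.2% of protein-coding genes were, and over 2-fold higher were 4 of 37 under the last, where 12.4% were. These scalings moved the median of all listed genes, which was -0.13 as deposited, to -0.60, -0.31 and 0.12. Dld, Dlst, Sucla2, Me1, Me2 and Me3 stayed above 0 in each of the 9 other settings that gave them a value. Acly, Aco1, Glud1, Got1, Got2, Idh3b, Idh3g, Pck2, Pdhx, Pdk3, Pdk4 and Pdp2, 12 genes in all, stayed below 0 wherever they had a value. Each scaling shifts all HFD values alike, by -0.57 to 0.29 in log2. A gene whose ratio lies further from 1 than the opposing shift must keep its sign, as must Pdk4 with its listed 0. Both lists therefore restate the size of the ratios and were fixed in advance. Quotients between genes of the same library do not depend on the scale.

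**Figure D4:**
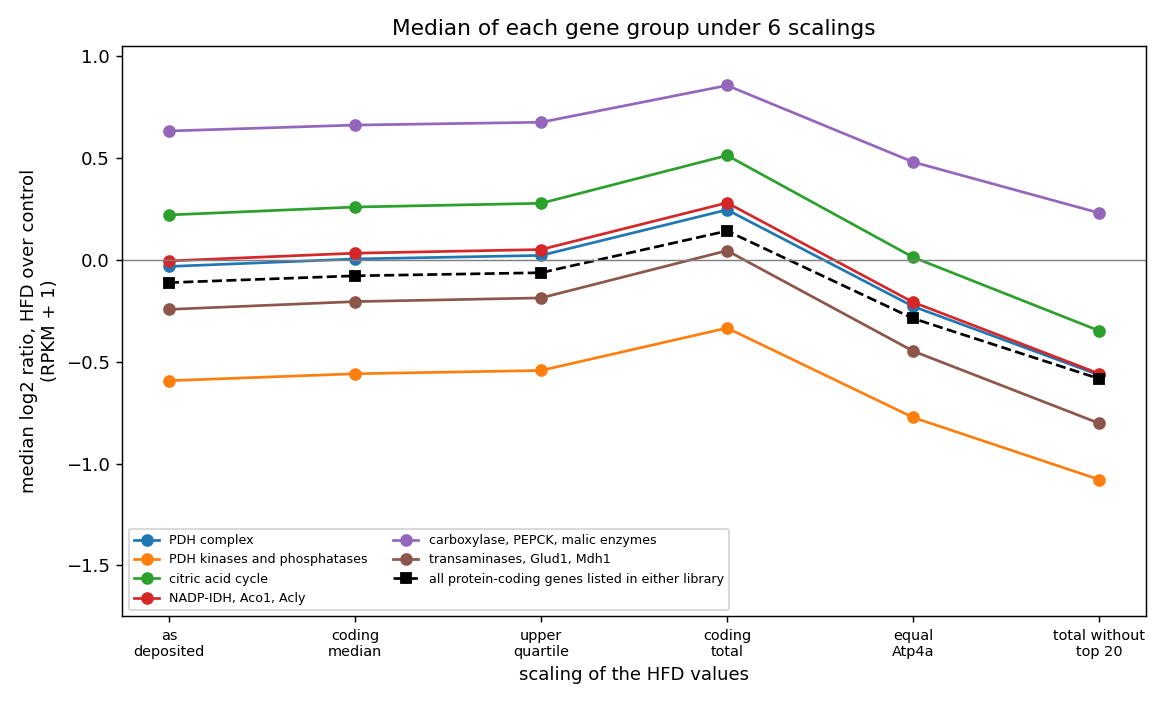
Median log2 ratio (RPKM + 1) of each role group, HFD over control, as deposited and under 5 other scalings of the HFD values; the dashed black line is the median of all protein-coding genes listed in either library. The group of carboxylase, PEP carboxykinases and malic enzymes is on top (0.63 as deposited) and the kinase and phosphatase group lowest (-0.59), while the level of all lines moves with the scaling. Each scaling multiplies all HFD values by 1 factor, so the order of the groups was nearly fixed in advance.

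Base composition moved with the ratio. Across the 36 genes the log2 ratio correlated with the GC content of the longest transcript at r = -0.33 (Spearman's rho -0.51), and across 9997 protein-coding genes at r = -0.26 (rho -0.28). The points share both libraries and are not independent. The 6 genes over 1.5-fold higher had a median GC content of 44.8%, the 5 over 1.5-fold lower 47.7%, and the 25 between them 48.2%. With exon length the members correlated at r = 0.17 (rho 0.21) and with their mean log2 level at r = 0.36 (rho 0.19). The part of base composition, length and level in these ratios was not tested.

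Around these enzymes, 50 further genes of pyruvate, citrate, lipoate, branched-chain and glutamate metabolism were followed, of which 47 were listed, 32 higher and 15 lower in HFD cells as deposited. Over 2-fold higher were 3, Slc25a13, Slc25a18 and Mcee, and over 2-fold lower were 3, Lipt2, Gls2 and Slc25a10, where the background of protein-coding genes was 8.02% higher and 20.1% lower. Those protein-coding genes split into 5271 higher and 6705 lower. Slc25a18, Lipt2 and Gls2 were each listed in 1 library only, below 2 RPKM, and passed by construction. Succinate dehydrogenase, which joins the cycle to the respiratory chain, did not differ in 1 direction as deposited. Of its genes, Sdha stood at 114 RPKM in HFD cells against 101 in control cells, Sdhb at 64.2 against 59.2, Sdhc at 29.3 against 42.0 and Sdhd at 91.8 against 126.

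The mitochondrial pyruvate carrier, which brings pyruvate to both Pcx and the dehydrogenase complex, differed evenly in its 2 subunits. Mpc2 stood at 19.6 RPKM in HFD cells and 9.72 in control cells (2.02, 1.86 to 2.19), and Mpc1 at 9.12 against 4.79 RPKM (1.91, 1.53 to 2.39). Mpc1 shares 480 exonic bases with an opposite-strand transcript, 4930506C21Rik, at 4.42 and 1.02 RPKM, so its value is uncertain. Slc25a10, the dicarboxylate carrier that exports malate, stood at 16.7 against 34.5 RPKM (0.484, 0.449 to 0.524). The aspartate-glutamate carriers of the malate-aspartate shuttle parted, with Slc25a13 at 16.6 against 7.09 RPKM (2.35, 2.06 to 2.68) and Slc25a12 at 5.91 against 8.99 RPKM (0.657, 0.595 to 0.724). The most abundant of the 50 were Oxct1, which uses ketone bodies, at 182 against 175 RPKM, Glul, glutamine synthetase, at 161 against 148, Pkm, pyruvate kinase, at 123 against 159, and Bckdha of the branched-chain complex at 144 against 136. Of the lactate dehydrogenase genes, Ldha stood at 109 against 96.6 RPKM (1.13) and Ldhb at 86.3 against 64.1 RPKM (1.35, 1.25 to 1.45). The carriers and cycle enzymes beyond those picked by level or ratio were named after their values were seen.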

How the data were processed

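Parietal cells were sorted from the stomachs of mice on either diet, and 1 library was sequenced per diet. Per the labels' protocols, ribosomal RNA was removed from DNase-treated total RNA and libraries were made with an Ion Total RNA-Seq kit. Of tools and builds, the submitters' processing notes list bedtools 2.25.0 and mm10. Which aligner, counting rule (with or without strand) and annotation were used is not given in the sources used for this work. The deposited values, in a column headed RPKM per the file headers, were read as log2 of RPKM without a pseudocount and with genes at or below 1 RPKM listed at 0: the largest was 18.22, and the smallest listed gene was at 1.001 RPKM in each library. For single-exon genes RPKM times length fell on multiples of 1 step, which gave the depths. At 12 steps or fewer, 94 of 189 values were whole within 0.005 in the HFD library and 259 of 727 in the control library.

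Symbols, lengths and overlaps came from GENCODE M21 (GRCm38, the assembly also called mm10), which matched 36308 identifiers and not 1779. Differences on the log2(RPKM + 1) scale understate low genes. Intervals of ratios are exact conditional binomial ones on estimated reads, and those of quotients are approximate ones on the log scale. The calculations were run with Python 3.11.15, numpy 2.4.6, pandas 2.3.3 and scipy 1.17.1. They were tested on simulated data for the HFD over control comparison: depth was recovered at a ratio of 1.00, 100% of 100 genes changed 4-fold and 15.0% of 100 changed 2-fold passed 2-fold, and 95.1% of 3000 counting intervals held the simulated fold. Depth was recovered there with the same gene lengths as used to simulate. The intervals there used the true simulated depths and counting error alone, so a share near 95% was fixed in advance.

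The genes and lists were chosen with earlier results of these data known. All 38 genes were given their values in both libraries. Of the further genes, those named were the 4 most abundant on average, the extremes of the ratio among genes with 50 or more estimated reads, and others as stated. Alternatives were a pseudocount of 0.1 RPKM, a listed 0 entered at 1 RPKM, a minimum of 5 RPKM, genes listed in both libraries only, and 4 planned scalings. The 1.5-fold limit and the scaling to Atp4a were chosen after seeing the data. With 1 library per diet no test and no p-value were possible.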

Additional observations from a re-analysis of the deposited data

How the results depend on the processing

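No paired analysis was possible because each diet had 1 library, and no library could be left out. Medians below are log2 ratios on the log2(RPKM + 1) scale unless a pseudocount is named, and the cause of each shift other than the scaling itself was not tested. Scaled to a total that leaves out the most abundant 20 genes (HFD values shifted by -0.57), 8 of the 38 genes were over 2-fold lower, the median was -0.51, and the group medians were -0.57 (dehydrogenase complex), -1.08 (kinases and phosphatases), -0.35 (cycle), -0.56 (NADP isocitrate dehydrogenases, Aco1 and Acly), 0.23 (malic enzyme group) and -0.80 (exchange enzymes). Of the 47 listed further genes, 1 was then over 2-fold higher and 8 lower, where 3.39% and 31.2% of protein-coding genes were. Scaled to the total of protein-coding genes (shift 0.29), 4 genes were over 2-fold higher, the median was 0.35, the group medians in the same order were 0.25, -0.33, 0.51, 0.28, 0.86 and 0.045, and 8 further genes were over 2-fold higher. Of the protein-coding genes, 12.4% were over 2-fold higher under that scaling. Scaled to equal Atp4a, chosen after seeing the data (shift -0.21), the median was -0.15 and the group medians were -0.23, -0.77, 0.013, -0.21, 0.48 and -0.45. Scaled to the upper quartile, 1 gene was over 2-fold higher, where as deposited there were none. Of the protein-coding genes, 8.54% were over 2-fold higher under that scaling. With a pseudocount of 0.1 RPKM the malic enzyme group median was 0.84, with genes under 5 RPKM left out 0.83, and without a pseudocount over those listed in both 0.85, where the kinase and phosphatase median was -0.21. The pseudocount of 0.1 RPKM put 5 further genes over 2-fold higher. Only 1 further gene was over 2-fold lower with a listed 0 entered at 1 RPKM, with genes under 5 RPKM left out, or over genes listed in both, and only 1 of the 38 genes at that minimum, since it drops genes near the floor. For these settings and the pseudocount of 0.1 RPKM, no share of protein-coding genes is at hand. The counts cannot be set against a background. At 1.5-fold, 6 of the genes were higher and 5 lower, and of the further genes 12 and 5, where 18.7% and 24.4% of protein-coding genes were. Of 328 single-gene values under other settings, 114 moved by more than counting error. The scalings shifted HFD values by -0.57 to 0.29, so a gene whose ratio lay further from 1 than the opposing shift could not change sign. Of the 38 genes, 6 stayed above 0 and 12 below 0 in every setting that gave them a value, and the other listed genes took both signs. Depth limits the genes near 1 RPKM, above all Pck2, Pdp1, Pdp2, Pdk4 and Me3.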

Other observations

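The propionyl-CoA branch, which delivers succinyl-CoA to the cycle from odd-chain fatty acids and branched amino acids, did not differ as a unit. Mcee, the epimerase, stood at 71.2 RPKM in HFD cells and 29.6 in control cells (2.40, 2.11 to 2.73), and Pcca, the alpha subunit of the carboxylase, at 31.4 against 16.9 RPKM (1.86). The beta subunit Pccb stood at 60.8 against 64.4 RPKM (0.944) and the mutase Mut at 27.1 RPKM in both. D2hgdh, which returns D-2-hydroxyglutarate to 2-oxoglutarate, was low in both libraries, at 6.10 RPKM in HFD cells against 3.98 in control cells (1.53, 1.29 to 1.82). Of the lipoate genes needed by Dlat and Dlst, Lias stood at 2.84 against 4.39 RPKM and Lipt1 at 1.38 against 2.49 RPKM. Lipt1 was near the floor, on about 72.2 and 50.3 reads. It shares 262 exonic bases with Mitd1 on the opposite strand, at 3.92 and 2.50 RPKM, so its value is uncertain. These genes were named after their values were seen. As deposited, though not under every scaling, genes of 1 enzyme whose ratios lay on opposite sides of 1 included Idh3a against Idh3b and Idh3g, Pdhb against Pdha1, Pcca against Pccb, and Sdha and Sdhb against Sdhc and Sdhd.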
